A study of Mus musculus with 12 samples.

Results

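The phagocyte NADPH oxidase subunit genes Cybb, Cyba, Ncf1, Ncf4 and Rac2 were taken by name from the deposited expression table, and all 5 were found among its 23309 genes. Expression was measured by RNA sequencing in mouse myeloid progenitor cultures sampled 0, 36 and 96 h from the time E2 was withdrawn. Each of 6 groups had 2 libraries, 12 in total. The cells are CD117+ bone marrow progenitors of C57BL/6 background that carry a retroviral ER-HoxB8 gene, an estrogen receptor joined to HoxB8 that holds them immature in the presence of E2, and they grow in IL-3. Wild-type cells came from littermates, and HMGN1-OE cells came from mice transgenic for human HMGN1, a nucleosome-binding protein that opens chromatin. Every group, controls included, carries the ER-HoxB8 virus, and the study calls the libraries of a group biological duplicates, without saying whether they are separate animals, immortalized lines or cultures. The p-values rest on the spread between libraries of a group and not on a known spread between animals. In the limma fit as deposited this spread was taken from the trend over genes of like level.

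The phagocyte oxidase moves electrons from NADPH across a membrane to oxygen and so makes superoxide, the starting point of the oxidative burst with which neutrophils and macrophages kill microbes. Its membrane core, flavocytochrome b558, pairs the catalytic subunit gp91phox, encoded by Cybb and also called NOX2, with the stabilizing partner p22phox, encoded by Cyba. On activation the cytosolic organizer p47phox (Ncf1), the phosphoinositide-binding subunit p40phox (Ncf4) and the GTPase Rac2 join the core. Loss of CYBB, CYBA, NCF1 or NCF4 causes chronic granulomatous disease in humans, and Rac2 is the Rac protein of hematopoietic cells. The study also followed production of reactive oxygen species while the cells matured, and the comparison here asks which oxidase transcripts are present in the progenitors, which change on differentiation, and whether HMGN1-OE cells differ. That other assay was not analysed here.

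Proximal promoters are shown for the 3 genes with an entry in the RefSeq promoter table of mouse build GRCm38.p6, because the catalytic subunit and its membrane partner had different time courses. Each line holds the 250 bases before the start of transcription, 5′ to 3′ on the strand of the gene, with matches to the searched motifs in capitals. The Cybb window lies on the minus strand at chrX:9469325-9469574, that of Cyba on the minus strand at chr8:122432941-122433190 and that of Ncf1 on the minus strand at chr5:134229626-134229875. Promoters of Ncf4 and Rac2 are not shown.
Cybb: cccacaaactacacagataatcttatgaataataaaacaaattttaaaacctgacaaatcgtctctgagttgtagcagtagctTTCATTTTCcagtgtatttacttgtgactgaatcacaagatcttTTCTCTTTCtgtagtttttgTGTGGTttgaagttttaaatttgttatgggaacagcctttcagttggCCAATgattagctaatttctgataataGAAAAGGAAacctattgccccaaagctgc
Cyba: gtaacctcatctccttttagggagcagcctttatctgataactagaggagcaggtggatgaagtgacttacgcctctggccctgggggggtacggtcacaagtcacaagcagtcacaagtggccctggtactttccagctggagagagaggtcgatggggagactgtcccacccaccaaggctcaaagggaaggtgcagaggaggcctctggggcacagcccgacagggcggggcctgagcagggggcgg
Ncf1: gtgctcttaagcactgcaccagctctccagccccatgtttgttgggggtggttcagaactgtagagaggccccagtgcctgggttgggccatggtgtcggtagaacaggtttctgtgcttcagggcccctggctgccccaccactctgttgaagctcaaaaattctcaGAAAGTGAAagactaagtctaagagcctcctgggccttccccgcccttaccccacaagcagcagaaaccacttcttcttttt
The motifs were GAGGAA (PU.1 type), GAAANNGAA (IRF type), TTGCNNAA (C/EBP type), TGTGGT (RUNX type) and CCAAT, searched on both strands, and none of the matches in these 3 promoters overlapped another. The Cybb promoter held 3 IRF-type matches, whose first bases lie at -29, -123 and -167 from the start, with 1 RUNX-type match at -103 and 1 CCAAT at -56. The Ncf1 promoter held 1 IRF-type match at -82, and the Cyba promoter held no match to any of the 5 motifs. Of 32851 mouse promoters of the same length, 7.13% held at least 1 IRF-type match, 14.0% a RUNX-type match, 33.8% a CCAAT, 23.3% a PU.1-type match and 9.56% a C/EBP-type match. Only 19 promoters, 0.0578% of them, held 3 or more IRF-type matches, a count made after the Cybb matches were seen. A match describes letters and does not show that a factor binds there.

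The libraries differed in overall level. The authors added ERCC spike-in RNAs to RNA from a fixed number of cells and normalized to them, and over the tested genes the median of log2(FPKM + 1) ran from 3.91 to 4.97 at 0 and 36 h and from 2.02 to 3.06 at 96 h. Between 0 and 96 h the median of the differences of single genes, over all tested genes, was a fall of 1.75 on the log2 scale in wild-type cells and of 1.28 in HMGN1-OE cells. Values are therefore given as deposited and also centred, with the median of each library subtracted from its log2 values, and a centred value states the position of a gene relative to the other genes of its library. In such bulk samples fewer cells of a type and less RNA per cell cannot be told apart. The wild-type b library at 96 h had the lowest median and its partner a stood at 2.99, while at 0 h the wild-type b library stood at 4.78 against 3.91. At 36 h the progenitor receptor gene Flt3 was at 4.10 FPKM in wild-type library a and at 67.0 in library b, against 7.53 and 9.31 in HMGN1-OE cells, so the wild-type pair at 36 h was not alike. Mouse Hmgn1 was between 85.7 and 201 FPKM at 0 and 36 h and between 4.71 and 20.7 at 96 h, and it does not check the human transgene.

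Cybb, the catalytic subunit gene, rose steeply between 36 and 96 h. Its mRNA was low in progenitors and at 36 h, and was among the more abundant transcripts of the cell at 96 h in both genotypes. At 0 h it stood at 2.84 and 1.14 FPKM in wild-type cells and at 2.60 and 1.55 FPKM in HMGN1-OE cells. At 36 h it stood at 0.725 and 0.765 FPKM in wild-type cells and at 0.761 and 0.177 FPKM in HMGN1-OE cells. At 96 h it reached 269.6 and 100.3 FPKM in wild-type libraries and 167 and 155 FPKM in those of HMGN1-OE cells. All 4 libraries at 96 h lay far above the other 8, while the genotypes overlapped at each time. FPKM is the number of sequenced fragments scaled by transcript length and library total. The deposited values were further normalized to the spike-ins, so their library sums differ, from 228955 to 1442570. The most frequent value in a library, which marks genes with almost no signal, was from 0.0967 to 0.105 FPKM.

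The mean Cybb level rose from 1.99 ± 1.21 to 185 ± 120 FPKM (SD, n = 2 libraries each) in wild-type cells, a ratio of 92.9 that ran from 35.2 to 237 over the possible pairs of single libraries. In HMGN1-OE cells it rose from 2.08 ± 0.738 to 161 ± 8.36 FPKM (SD, n = 2 libraries each), a ratio of 77.6 with pairs from 59.7 to 107. On the log2(FPKM + 1) scale, which understates changes of low genes, the rise was 5.85 (SE 0.47) in wild-type and 5.74 (SE 0.47) in HMGN1-OE cells, with limma adjusted p-values of 8.38e-33 and 1.23e-31. Counted from the largest rise, Cybb held place 20 of 11516 tested genes in each genotype. From 36 to 96 h the rise was 6.57 (SE 0.47) in wild-type and 6.81 (SE 0.47) in HMGN1-OE cells, with limma adjusted p-values of 1.57e-41 and 7.32e-45. The limma standard errors come from the trend of variance over expression and not from the spread of Cybb itself. With a linear model that used only its own libraries the 4 adjusted p-values were between 0.00223 and 0.00697. In rank among all genes of a library, Cybb moved from places 9401 to 10943 at 0 h to places 183 to 360 at 96 h.

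**Figure D1:**
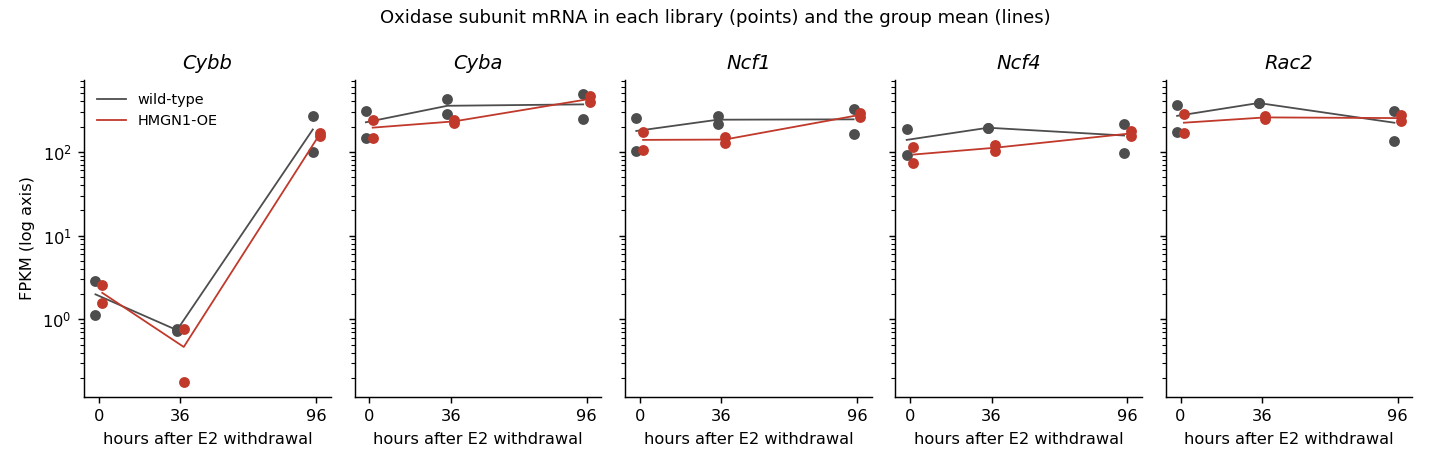
FPKM (log axis) of the 5 subunit genes in each of the 12 libraries (points) and the group means (lines) against hours after E2 withdrawal, wild-type in grey and HMGN1-OE in red. Cybb is below 3 FPKM in all 8 libraries at 0 and 36 h and above 100 FPKM in all 4 at 96 h, while the other 4 genes are above 72 FPKM in every library.

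Before this rise Cybb was lower at 36 h than at 0 h. In each genotype both libraries at 36 h lay below both libraries at 0 h, which was true of 0.356% of tested genes in wild-type and of 9.47% in HMGN1-OE cells. The limma difference was -0.72 (SE 0.47, adjusted p = 0.589) in wild-type and -1.07 (SE 0.47, unadjusted p = 0.0223, adjusted p = 0.617) in HMGN1-OE cells, so neither passed the test. In HMGN1-OE cells the call depended on the setting, with an adjusted p of 0.0096 at a pseudocount of 0.1 and of 7.9e-06 when only the compared libraries entered the fit. Values this low can also be failed estimates. The S100a9 gene, for example, was listed at 0.0511 FPKM in 1 wild-type library at 96 h and at 26546 FPKM in the other.

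The other 4 subunit genes were already abundant in progenitors and were abundant at every time. Cyba, the membrane partner of gp91phox, was at 144 and 306 FPKM in wild-type and at 242 and 147 FPKM in HMGN1-OE cells at 0 h. It was at 424 and 285 FPKM in wild-type and at 243 and 219 FPKM in HMGN1-OE cells at 36 h. At 96 h it was at 488 and 249 FPKM in wild-type and at 398 and 459 FPKM in HMGN1-OE cells. The HMGN1-OE libraries at 96 h both lay above those at 0 h, and the wild-type libraries of all 3 times overlapped. The limma difference between 0 and 96 h was 0.73 (SE 0.60, adjusted p = 0.248) in wild-type and 1.18 (SE 0.60, adjusted p = 0.0687) in HMGN1-OE cells.

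Ncf1, the organizer that brings the cytosolic subunits to the membrane, stood at 103 and 252 FPKM in wild-type and at 172 and 106 FPKM in HMGN1-OE cells at 0 h. At 36 h it stood at 267 and 216 FPKM in wild-type and at 151 and 129 FPKM in HMGN1-OE cells, and at 96 h at 327 and 161 FPKM in wild-type and at 259 and 295 FPKM in HMGN1-OE cells. Its wild-type libraries overlapped between all times, and its HMGN1-OE libraries were higher at 96 h than at 0 and 36 h, by 1.03 (SE 0.59, adjusted p = 0.106) from 0 h in the limma fit. The Ncf1 exons share 408 bases with the antisense gene Gtf2ird2, and the library kit does not keep strand, so reads of that stretch cannot be assigned to either gene. Gtf2ird2 was between 3.31 and 8.36 FPKM in all 12 libraries. Of the 36-base words in the Ncf1 exons 9.10% also occur in other genes, against 5.68% for Cyba, 4.0% for Rac2 and none for Cybb and Ncf4, so a small part of these 3 genes could have been counted elsewhere.

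Ncf4 encodes the subunit that reads phosphoinositides on the phagosome. It stood at 92.8 and 185 FPKM in wild-type and at 113 and 72.7 FPKM in HMGN1-OE cells at 0 h, and at 194 and 194 FPKM in wild-type and at 121 and 103 FPKM in HMGN1-OE cells at 36 h. At 96 h it stood at 215 and 98.0 FPKM in wild-type and at 156 and 176 FPKM in HMGN1-OE cells. The differences between 0 and 96 h were 0.15 (SE 0.58, adjusted p = 0.812) and 0.86 (SE 0.58, adjusted p = 0.170) in the limma fit.

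Rac2, the GTPase whose active form is needed for electron transfer, stood at 172 and 366 FPKM in wild-type and at 280 and 166 FPKM in HMGN1-OE cells at 0 h, and at 387 and 378 FPKM in wild-type and at 268 and 247 FPKM in HMGN1-OE cells at 36 h. At 96 h it stood at 309.7 and 135 FPKM in wild-type and at 231 and 275 FPKM in HMGN1-OE cells. In wild-type cells both libraries at 96 h lay below both at 36 h. The limma difference between 36 and 96 h was -0.90 (SE 0.59, adjusted p = 0.141) in wild-type and -0.03 (SE 0.59, adjusted p = 0.964) in HMGN1-OE cells. Without the wild-type library a at 96 h the wild-type difference was -1.49 with an adjusted p of 0.0117, and without library b at 96 h it was -0.30 with an adjusted p of 0.620.

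As deposited, 1 of the 5 genes, Cybb, was called higher at 96 h in each comparison, where 4.31% of tested genes were called higher in wild-type cells and 5.08% in HMGN1-OE from 0 h, and 3.15% and 4.02% from 36 h. None of the 5 was called lower between 0 and 96 h, where 77.2% of tested genes were called lower in wild-type cells and 62.4% in HMGN1-OE. The median difference of the 5 genes was 0.51 for wild-type and 1.03 for HMGN1-OE cells, against -1.75 and -1.28 for all tested genes. The 4 abundant subunits were thus not called changed in either direction as deposited, at a time when most transcripts were called lower. This rests on the libraries used. Without either wild-type library at 96 h Cyba and Ncf1 were also called higher from 0 to 96 h in HMGN1-OE cells, at 1.18 and 1.03, and without the b libraries of wild-type cells at 0 and 96 h Cyba, Ncf1 and Ncf4 were also called higher in each genotype.

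After centring all 5 genes were called higher at 96 h than at 0 h and than at 36 h in both genotypes. The 2 libraries of a group lay closer together on the centred scale in 23 of 30 cases, 9 of 10 at 0 h, 5 of 10 at 36 h and 9 of 10 at 96 h, and further apart for all 5 genes in wild-type cells at 36 h and for Cybb in wild-type cells at 0 h and HMGN1-OE cells at 96 h. Centred Cyba was at 5.949 and 5.945 in wild-type libraries at 96 h and at 5.89 and 5.79 in the HMGN1-OE libraries, against 3.27 and 3.48 and against 3.45 and 3.25 at 0 h. Between 0 and 96 h the centred rise in wild-type cells was 7.70 for Cybb (SE 0.46), 2.57 for Cyba (SE 0.23), 2.35 for Ncf1 (SE 0.20), 1.99 for Ncf4 (SE 0.12) and 1.56 for Rac2 (SE 0.15). In HMGN1-OE cells it was 7.05, 2.49, 2.34, 2.17 and 1.54 in the same order with the same standard errors, and the 10 limma adjusted p-values were at most 3.92e-05. A call of this kind was common, since 36.5% of tested genes were called higher in wild-type cells and 30.9% in HMGN1-OE from 0 h, and 38.2% and 28.6% from 36 h. From 36 to 96 h the centred rises in wild-type cells were 8.89, 2.33, 2.26, 1.91 and 1.43, and in HMGN1-OE cells 8.16, 2.23, 2.32, 1.91 and 1.31. The median centred rise of the 5 genes from 0 to 96 h was 2.35 for wild-type and 2.34 for HMGN1-OE cells, against 0.09 and 0.03 for all tested genes.

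**Figure D2:**
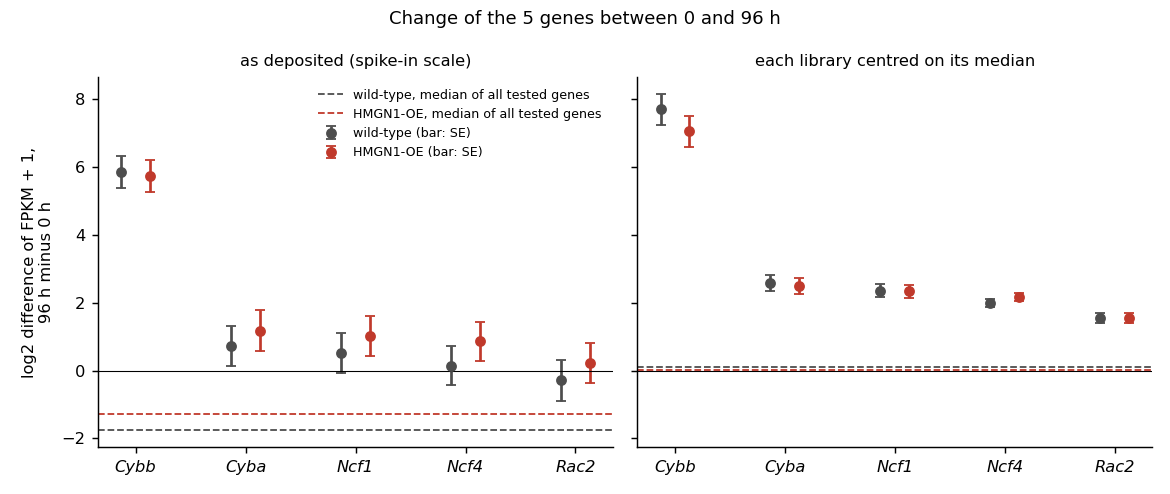
Log2 difference of FPKM + 1 between 96 and 0 h for each subunit gene, with limma standard errors, as deposited (left) and after each library was centred on its median (right), wild-type in grey and HMGN1-OE in red, with the median of all tested genes dashed. As deposited only Cybb, at 5.85 and 5.74, was called, with the next highest point Cyba at 1.18 in HMGN1-OE cells, and after centring all 5 genes were called higher, from 1.54 to 7.70.

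A single factor applied to a whole library cancels in a ratio of its genes, but the loess normalization used by the authors can differ between low and high values, so a ratio of low Cybb to an abundant gene may still carry it. These ratios showed a change in the makeup of oxidase mRNA. Cybb made up from 0.102% to 0.553% of the summed FPKM of the 5 genes at 0 h, from 0.0254% to 0.0971% at 36 h and from 11.4% to 16.7% at 96 h. The 2 core subunits of flavocytochrome b558 stood at between 50.7 and 269 Cyba fragments per Cybb fragment at 0 h, between 319 and 1238 at 36 h and between 1.81 and 2.96 at 96 h, per length of transcript. Rac2 fell from between 32.9% and 34.6% of the sum at 0 h to between 18.2% and 20.2% at 96 h. Cyba was from 27.6% to 29.9% of the sum at 0 h and from 30.3% to 33.8% at 96 h, and Ncf1 was from 20.03% to 22.7% at 0 h and from 20.3% to 21.7% at 96 h. Ncf4 was from 14.0% to 18.0% at 0 h and from 12.8% to 13.4% at 96 h. The part of Cybb in the sum at 96 h lowers the shares of the other genes, so these shares do not give their own courses. The ratio of Cyba to Rac2 was from 0.838 to 0.886 in the 4 libraries at 0 h and from 1.58 to 1.84 in the 4 at 96 h, without overlap.

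**Figure D3:**
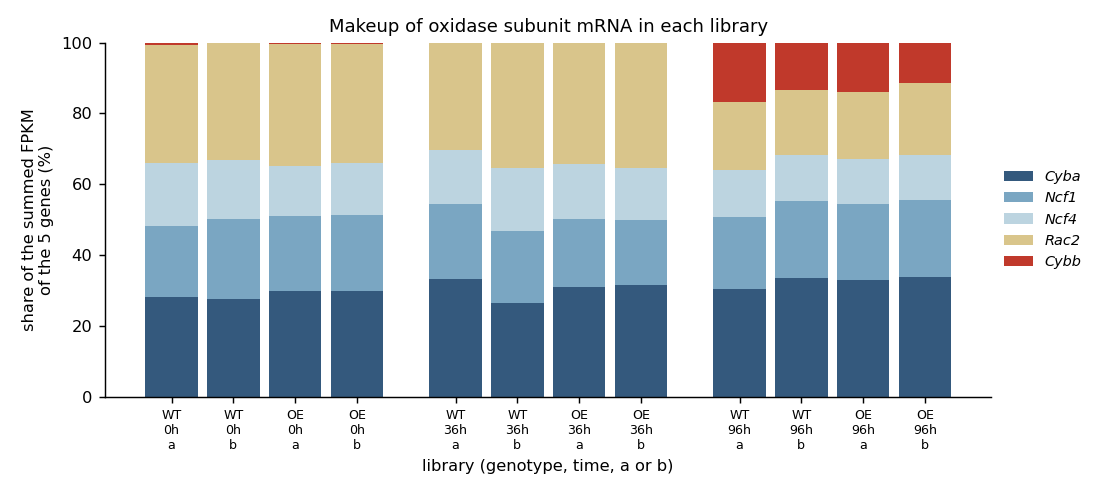
Share (%) of each gene in the summed FPKM of the 5 subunit genes, 1 bar for each of the 12 libraries, ordered by time and genotype (WT wild-type, OE HMGN1-OE, a and b the 2 libraries). Cybb, in red, is at most 0.553% at 0 and 36 h and from 11.4% to 16.7% at 96 h.

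The order of the levels, which FPKM allows because it is per length, was Rac2, Cyba, Ncf1, Ncf4 and Cybb in 4 of 4 libraries at 0 h and in 3 of 4 at 36 h, and in the other library at 36 h Cyba stood first. At 96 h it was Cyba, Ncf1, Rac2, Cybb and Ncf4 in 3 of 4 libraries, and Ncf4 stood before Cybb in the other. Across groups, neighbours in the order of mean level mostly overlapped. For Cybb the order from the lowest was HMGN1-OE at 36 h, wild-type at 36 h, wild-type at 0 h, HMGN1-OE at 0 h, HMGN1-OE at 96 h and wild-type at 96 h, and only the steps from 36 to 0 h and from 0 to 96 h had no overlap of libraries. For Cyba and Rac2 the single step without overlap set wild-type cells at 36 h apart from the group below them, at 355 against 231 FPKM and at 383 against 269 FPKM in the mean. For Ncf4 it also set wild-type cells at 36 h, at 194 FPKM, apart from the group below at 166 FPKM, and Ncf1 had no such step.

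HMGN1-OE and wild-type cells were then compared at each time. None of the 5 genes was called by limma as deposited, where 1.36% of tested genes were called at 0 h, 1.26% at 36 h and 0.669% at 96 h, and none had an unadjusted p under 0.05. Cybb differed by 0.08 (SE 0.47) at 0 h, -0.28 (SE 0.47) at 36 h and -0.03 (SE 0.47) at 96 h, with limma adjusted p-values of 1.0, 0.602 and 0.989. Cyba differed by -0.16, -0.59 and 0.29 (SE 0.60), Ncf1 by -0.26, -0.78 and 0.26 (SE 0.59), Ncf4 by -0.53, -0.79 and 0.19 (SE 0.58) and Rac2 by -0.22, -0.57 and 0.30 (SE 0.59) at the 3 times. At 36 h these 4 genes were lower in each HMGN1-OE library than in either wild-type library, which was true of 84.4% of all tested genes at that time. With standard errors of this size a missed threshold does not show that the genotypes are alike. An exact permutation test on 2 libraries against 2 cannot go below p = 0.333.

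After centring, none of the 5 genes was called between genotypes, where limma called 0.104% of tested genes at 0 h, 0.0521% at 36 h and 0.0608% at 96 h. Only Ncf4 at 0 h had an unadjusted p under 0.05. Centred Ncf4 was at 2.35 and 2.25 in HMGN1-OE against 2.64 and 2.75 in wild-type libraries at 0 h, at 2.63 and 2.51 against 2.92 and 2.64 at 36 h, and at 4.54 and 4.41 against 4.77 and 4.61 at 96 h. Both HMGN1-OE libraries thus lay below both wild-type libraries at all 3 times, which was true of 17.9%, 9.49% and 22.6% of tested genes at each time taken alone. At 96 h the same held for centred Cyba, Cybb and Ncf1, so 4 of the 5 genes lay below wild type there, and at 0 and 36 h Ncf4 was the 1 gene of the 5. The differences were -0.39 (SE 0.12, unadjusted p = 0.0103, adjusted p = 0.637), -0.21 (SE 0.12, adjusted p = 1.0) and -0.22 (SE 0.12, adjusted p = 0.378) in the limma fit. Centred Cyba, Ncf1 and Rac2 differed between genotypes by -0.20 to 0.01 over the 3 times. Centred Cybb differed by 0.21, 0.30 and -0.43 (SE 0.46).

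**Figure D4:**
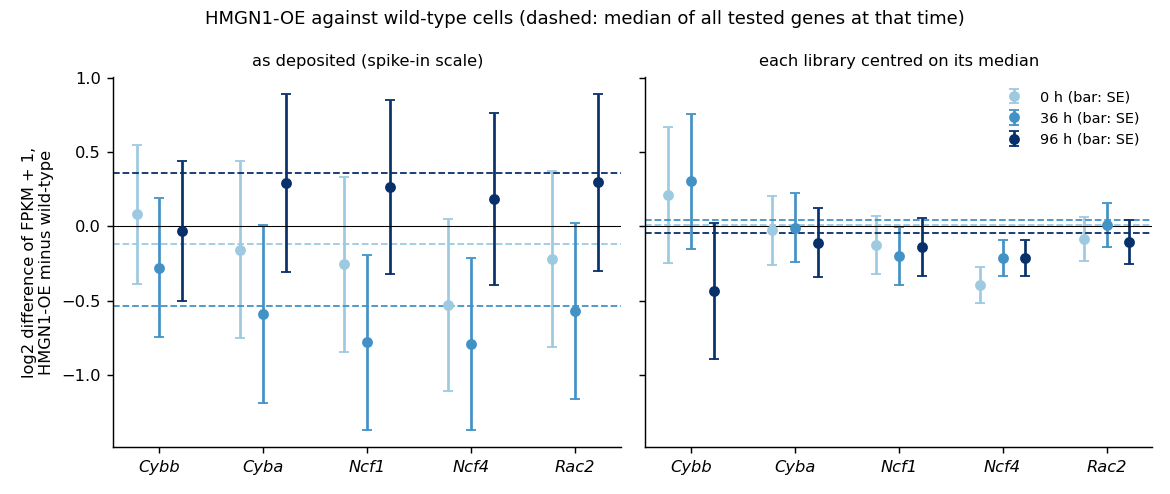
Log2 difference of FPKM + 1, HMGN1-OE minus wild-type, for each subunit gene at 0, 36 and 96 h, with limma standard errors, as deposited (left) and centred (right), with the median of all tested genes at each time dashed. As deposited the genes follow the median of all genes within their standard errors, and after centring Ncf4 lies lowest at 0 h, at -0.39.

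The change over time was compared between genotypes with the limma interaction test, which called none of the 5 genes as deposited or centred, and none had an unadjusted p under 0.05. As deposited 0.504% of tested genes were called for the interaction from 0 to 36 h and 0.677% from 0 to 96 h, and 0.0174% and 0.0347% were called after centring. For Cybb the interaction from 0 to 96 h was -0.11 (SE 0.66) as deposited and -0.65 (SE 0.65) centred. From 0 to 36 h none of the 5 genes was called by limma in wild-type or HMGN1-OE cells, where 0.617% and 1.80% of tested genes were called as deposited and 0.00868% and 0.13% after centring. Cybb had an unadjusted p under 0.05 in HMGN1-OE cells as deposited and in both genotypes after centring, and no other of the 5 genes did.

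The proteins that join or switch the oxidase were described from a list of 24 genes, all tested. Rac1, the widely expressed Rac, changed by -1.59 in wild-type cells as deposited (limma adjusted p = 0.00865), a call lost without the b library at 0 h (-1.11, adjusted p = 0.132) or at 96 h (-1.06, adjusted p = 0.0867), but was called higher after centring, by 0.26 and 0.40, so its direction depends on the scale. The ratio of Rac2 to Rac1 went from between 1.27 and 1.40 at 0 h to between 2.79 and 3.48 at 96 h. Rac2 shares no 36-base word with Rac1.

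Between 0 and 96 h limma called 3 of the 24 genes higher and 14 lower in wild-type, and 4 higher and 5 lower in HMGN1-OE cells as deposited. Of all tested genes 4.31% were called higher and 77.2% lower in the former, and 5.08% and 62.4% in the latter. The median difference of the list was -1.41 for wild-type and -0.84 for HMGN1-OE cells, above the -1.75 and -1.28 of all genes. With each library left out in turn these counts ran from 0 to 4 higher and from 6 to 16 lower in wild-type cells, where none was called higher without library a at 0 h, 1 without library a at 96 h, and 6 were called lower without library b at 0 h or at 96 h. In HMGN1-OE cells they ran from 2 to 4 higher and from 3 to 8 lower, with 2 called higher without library b at 0 h or either library at 96 h, 3 called lower without library a at 0 h or at 96 h, and 8 called lower without either wild-type library at 96 h. Hvcn1, the proton channel that balances the charge moved by the oxidase, rose by 2.83 in HMGN1-OE cells (adjusted p = 1.08e-06), and Pak1, a kinase that binds active Rac, rose by 2.21 there. In wild-type cells Pak1 stood at 0.471 and 4.99 FPKM at 0 h and at 8.76 and 4.87 FPKM at 96 h, so the times overlapped. Its limma difference was 1.35 (adjusted p = 0.00111), but 0.34 (adjusted p = 0.484) without library a at 0 h and 2.36 without library b at 0 h. The wild-type Hvcn1 difference of 1.24 likewise became 0.47 (adjusted p = 0.450) without library a at 0 h and 0.62 (adjusted p = 0.274) without library a at 96 h, and 2.01 and 1.87 without the b library at 0 and at 96 h. The calls of Prex1, a Rac exchange factor, at 1.23 in the wild type and 1.29 with HMGN1-OE, and of Prkcb, a kinase that phosphorylates p47phox, at 1.37 in HMGN1-OE cells, were each lost without single libraries of the groups compared. The Prex1 value was lowest, at 0.80, without wild-type library a at 0 h, and that of Prkcb, at 0.83, without HMGN1-OE library b at 0 h. The lowest in both was Pla2g4a, cytosolic phospholipase A2, with differences of -2.97 and -2.60. After centring 17 of the 24 were called higher and 4 lower in wild-type, and 16 and 4 in HMGN1-OE cells. The shares of all tested genes on this scale were 36.5% higher and 33.8% lower in wild-type, and 30.9% and 32.5% in HMGN1-OE cells. Hvcn1 rose by 3.09 and 4.14 on this scale, while Pla2g4a, Arhgdia and Pik3c3 were lower in both genotypes, Prdx6 in wild-type and Vav3 in HMGN1-OE cells. None of the 24 was called between genotypes at any time on either scale.

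**Figure D5:**
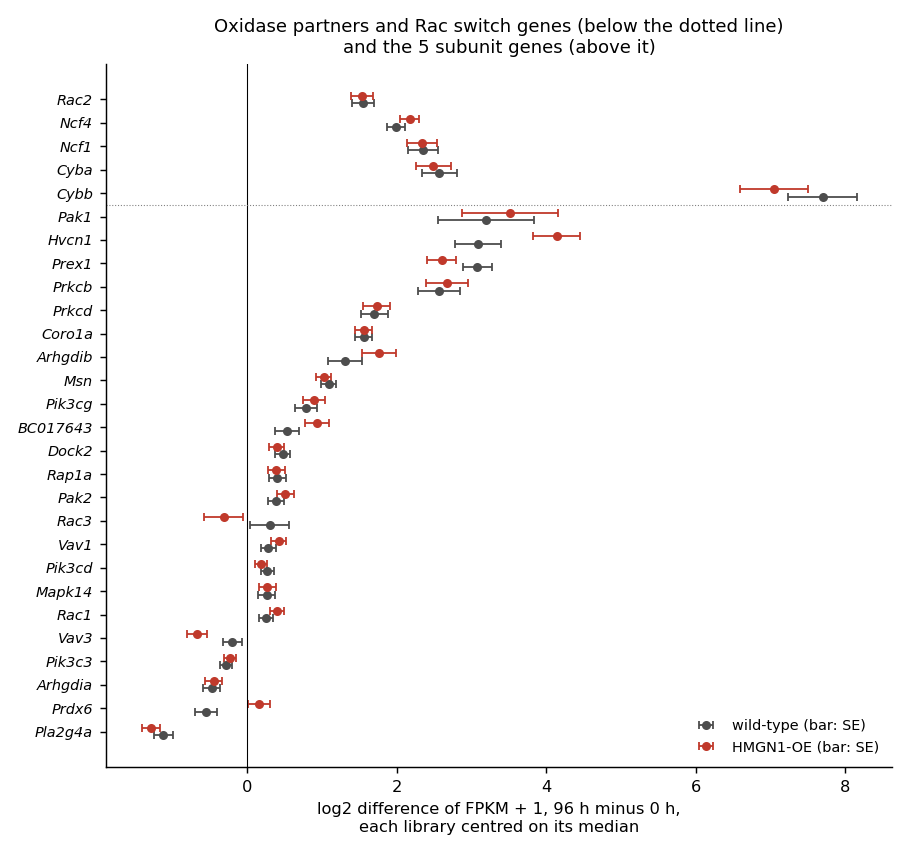
Centred log2 difference of FPKM + 1 between 96 and 0 h, with limma standard errors, for 23 of the 24 partner genes (below the dotted line, ordered by wild-type value) and the 5 subunit genes (above it), wild-type in grey and HMGN1-OE in red. These partners run from -1.29 for Pla2g4a to 4.14 for Hvcn1, both in HMGN1-OE cells, and Cybb lies beyond them at 7.70 and 7.05.

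Other NADPH oxidases were almost unexpressed. Of Nox1, Nox3, Nox4, Noxa1, Noxo1, Duox1, Duox2, Duoxa1 and Duoxa2, only Noxo1, the organizer of NOX1, passed the filter on low values, and it was at most 2.81 FPKM. It was called lower between 0 and 96 h in wild-type cells as deposited, with a limma difference of -0.89 (adjusted p = 0.0138) that was not called without the b library at 0 h (-0.62) or at 96 h (-0.73), and called higher after centring, by 0.95 (adjusted p = 0.0151), so its direction depends on the scale. Nox1 was at most 0.466 FPKM in any library.

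Genes that supply NADPH were described from a list of 12, all tested. As deposited limma called none higher and 7 lower in wild-type, and none higher and 6 lower in HMGN1-OE cells between 0 and 96 h, with medians of -1.74 and -1.02. A fall was also the call of 77.2% and 62.4% of all tested genes, a larger share than of these 12 in each genotype. With each library left out in turn 6 to 9 were called lower in wild-type cells and 2 to 6 in HMGN1-OE cells, where 2 were called without library a at 0 h and 3 without library a at 96 h. Idh2, the mitochondrial isocitrate dehydrogenase, had the lowest differences, -4.50 and -3.61. G6pdx, which opens the pentose phosphate pathway, was the highest, at -0.17 (adjusted p = 0.783) and 0.59 (adjusted p = 0.353) as deposited, and was called higher after centring, by 1.68 and 1.90. After centring 5 were called higher and 5 lower in wild-type, and 6 and 4 in HMGN1-OE cells, against 36.5% and 33.8%, and 30.9% and 32.5%, of all tested genes. Of the other pentose phosphate pathway genes of the list, Pgd, Tkt and Taldo1 were called higher in both genotypes after centring, whereas Pgls was called lower in wild-type cells, at -0.37 (adjusted p = 0.0498), and stood at 0.02 (adjusted p = 0.909) in HMGN1-OE cells. None was called between genotypes.

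Genes that handle superoxide and peroxide were described from a list of 16, of which 15 were tested. As deposited 1 was called higher and 11 lower in wild-type, and 2 higher and 8 lower in HMGN1-OE progeny, and the shares of these 15 called lower were below the 77.2% and 62.4% of all tested genes. Of all tested genes 4.31% and 5.08% were called higher. With each library left out in turn 1 or 2 were called higher in each genotype, 2 in wild-type cells without library b at 96 h and 1 in HMGN1-OE cells without any 1 of their libraries at 0 and 96 h, and from 9 to 12 and from 6 to 10 lower. After centring the counts were 3 and 8 in wild-type, where 36.5% of all tested genes were called higher and 33.8% lower, and 4 and 6 in HMGN1-OE cells, where 30.9% and 32.5% were. The median was -2.13 and -1.45 as deposited. Sod1, the cytosolic superoxide dismutase, changed by -3.46 and -2.93, and the peroxiredoxin gene Prdx2 by -4.14 and -3.75, in the limma fit as deposited, and both were also called lower after centring. Mpo, which makes hypochlorous acid from the peroxide that follows superoxide, changed by -6.21 in wild-type cells and -1.45 in HMGN1-OE as deposited, the second running from -2.36 to -0.54 with each library left out and not called without any 1 of 5 libraries, with the highest adjusted p, 0.565, without HMGN1-OE library a at 96 h, and after centring it was called lower only in wild-type cells, at -4.36. The eosinophil peroxidase gene Epx rose by 5.51 in wild-type cells and 1.85 in HMGN1-OE. These genes were the ones of the list called between genotypes as deposited. Mpo stood at 540 and 642 FPKM in HMGN1-OE and at 2107 and 4406 FPKM in wild-type libraries at 0 h, a limma difference of -2.37 (adjusted p = 0.0109) that was not called without either HMGN1-OE library or wild-type library b at 0 h, with adjusted p-values of 0.382, 0.112 and 0.831. At 96 h it stood at 114 and 406 FPKM against 116 and 13.5 FPKM, so the genotypes overlapped. The difference of 2.39 there (adjusted p = 0.0170) was 0.88 without wild-type library b, 3.90 without wild-type library a and 1.48 without HMGN1-OE library b, and of these 3 the second alone was called. The call was also lost without either HMGN1-OE library or wild-type library b at 36 h. Epx differed by -2.14 at 96 h (adjusted p = 0.000449), but was not called without library a of HMGN1-OE cells (-1.74, adjusted p = 0.372) or of wild-type cells (-1.33) at that time. The limma interactions from 0 to 96 h were 4.76 for Mpo (adjusted p = 1.65e-05) and -3.66 for Epx (adjusted p = 3.14e-06), and were called with each library left out, at 3.25 to 6.27 for Mpo and -4.47 to -2.85 for Epx, with adjusted p-values of at most 0.0268 and 0.00418. After centring none of the list was called between genotypes or for either interaction.

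Factors known to act on oxidase promoters were described from a list of 11, all tested. As deposited 1 was called higher and 3 lower in wild-type and 2 higher and 4 lower in HMGN1-OE cells between 0 and 96 h, with medians of -0.58 and -0.19, and after centring 6 were higher and 2 lower, and 7 higher and 2 lower. The shares of all tested genes were 4.31% higher and 77.2% lower, and 5.08% and 62.4%, as deposited, and 36.5% and 33.8%, and 30.9% and 32.5%, centred. With each library left out in turn the counts as deposited ran from 1 to 2 higher and 2 to 5 lower in wild-type cells, with 5 lower without library a at 0 h or 96 h and 2 higher and 2 lower without library b at 96 h. In HMGN1-OE cells they ran from 1 to 3 higher and 2 to 5 lower, with 1 higher without any 1 of their libraries at 0 and 96 h, 2 lower without library a at 96 h, and 3 higher without either wild-type library at 96 h. Sfpi1, which encodes PU.1, stood between 56.4 and 142 FPKM at 0 h and between 90.0 and 173 FPKM at 96 h, and was called higher only after centring, by 2.24 and 2.32. Irf8 was between 2.72 and 15.2 FPKM at 0 h and between 2.58 and 5.24 at 96 h. In wild-type cells it stood at 2.72 and 15.2 FPKM at 0 h and 2.86 and 2.58 FPKM at 96 h, so the times overlapped. The limma difference of -1.06 as deposited (adjusted p = 0.0174) rests on library b at 0 h, since without it the adjusted p was 0.999, and without library a at 0 h the difference was -2.12. The call was also lost without library b at 96 h (adjusted p = 0.0674). After centring it was called higher in HMGN1-OE cells, by 1.57. Cebpe, a factor of granulocyte maturation, was called higher after centring by 2.78 and 3.39. Cebpa and Elf1 were called lower on both scales in both genotypes, with differences of -3.28 and -2.98 as deposited in wild-type cells, although Cebpa in HMGN1-OE cells, at -2.06, was not called without library a at 96 h (-1.63, adjusted p = 0.0656). The counts of genes called higher include Bcl6, a repressor, at most 0.180 FPKM at 0 h and between 0.960 and 2.19 FPKM at 96 h. It passed the filter on low values through the libraries at 96 h alone, so its call is not independent of the filter, and as deposited it was the 1 gene called higher in wild-type cells and, with Cebpe, 1 of the 2 in HMGN1-OE cells. Hoxa9 was higher in HMGN1-OE cells at 0 h, at 31.5 and 6.87 against 2.99 and 0.230 FPKM, by 2.85 (adjusted p = 6.13e-10), or 1.83 without HMGN1-OE library a. At 36 h it stood at 6.17 and 24.6 FPKM in HMGN1-OE and at 0.164 and 7.06 FPKM in wild-type cells, so the genotypes overlapped. The difference of 2.15 (adjusted p = 2.62e-05) was 0.75 (adjusted p = 0.538) without wild-type library a, 3.54 without wild-type library b and 1.23 (adjusted p = 0.715) without HMGN1-OE library b. Irf8 differed by -1.49 at 36 h (adjusted p = 0.0412), a call lost without any 1 of 7 libraries, and after centring none of the list was called between genotypes by limma.

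The genes whose course was most like that of each subunit were found by Pearson r over the 12 libraries of centred log2 values, which share time points and scaling, so the values are a description. For Cybb they were Itgb2l (r = 0.999), Ceacam10 (r = 0.998) and Cd177 (r = 0.997), the same 3 genes as deposited. Cd177, a neutrophil surface protein, stood between 1.62 and 4.16 FPKM at 0 h, between 0.366 and 1.02 FPKM at 36 h and between 91.7 and 267 FPKM at 96 h. Itgb2l, a beta-2-like integrin gene, stood between 0.675 and 1.58 FPKM at 0 h, between 0.186 and 0.713 FPKM at 36 h and between 51.6 and 122 FPKM at 96 h. The low point at 36 h in each was also seen for Cybb. The nearest genes were Plekho2, Rp2h and Rnf166 for Cyba, Abcc5, Rnf166 and Ppp1r18 for Ncf1, Ppp2r5a, Pstpip1 and Rps6ka1 for Ncf4, and Rp2h, Msn and Stxbp2 for Rac2, each with r of 0.997 to 0.998. As deposited they included Ppm1m and Rogdi for Cyba, Arhgap9, Ppp1r18 and Rogdi for Ncf1, Dgka, Stard8 and Pstpip1 for Ncf4, and Rp2h, Tbc1d10b and Atp2a3 for Rac2. Among themselves Cyba, Ncf1, Ncf4 and Rac2 had r of 0.986 to 0.995 centred, and Cybb had r of 0.954 to 0.966 with them, where these genes held places 563 to 906 among all genes. As deposited the values were lower and of both signs. Cybb had r of 0.561 with Cyba, 0.520 with Ncf1, 0.274 with Ncf4 and -0.250 with Rac2, Rac2 had r of 0.607 to 0.828 with the other 3, and those 3 had r of 0.883 to 0.973 among themselves.

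Markers of the cells also changed over time. Progenitor markers were present at 0 h, with Cd34 at 467 to 695 FPKM, Myb at 238 to 470 FPKM and Ctsg at 3711 to 7413 FPKM. The 11 progenitor markers summed to between 5741 and 16462 FPKM at 0 h, 12693 and 22262 FPKM at 36 h and 130 and 2344 FPKM at 96 h. At 0 and 36 h Ctsg, Mpo and Prtn3 led this sum, and its members did not move together. In HMGN1-OE cells Flt3 went from 82.2 and 64.6 FPKM at 0 h to 7.53 and 9.31 FPKM at 36 h. Cd34 went there from 695 and 467 FPKM to 259 and 337 FPKM. Elane rose there from 106 and 74.0 FPKM at 0 h to 1772 and 1260 FPKM at 36 h, and stood at 168 and 554 FPKM at 96 h. The 15 neutrophil maturation markers, led at 96 h by S100a8, S100a9 and Ngp, summed to between 1220 and 3017 FPKM at 0 h, 328 and 2226 FPKM at 36 h, and 67500 and 173947 FPKM at 96 h. S100a9 entered the sum of wild-type library a at 96 h at 0.0511 FPKM, a possible failed estimate that lowers that sum. Mmp8 went the other way in HMGN1-OE cells, from 55.6 and 63.3 FPKM at 0 h to 15.3 and 12.5 FPKM at 96 h. In wild-type cells Mmp8 went from 55.7 and 204 FPKM to 33.4 and 60.4 FPKM, so the times overlapped. The 12 monocyte and macrophage markers summed to between 72.2 and 1019 FPKM at 0 h and 422 and 1357 FPKM at 96 h. At 36 h they summed to between 456 and 2381 FPKM in wild-type and between 223 and 234 FPKM in HMGN1-OE cells. The highest sum was that of wild-type library a at 36 h, where Ly6c2 alone stood at 2179 FPKM. Ly6c2 led the sum of these 12 markers in every group but HMGN1-OE cells at 0 h, where Emr1 led it, at 119 and 37.7 FPKM. Marco, Cx3cr1, C1qa and C1qb were below 1 FPKM in all 12 libraries. Emr1 fell from between 37.7 and 119 FPKM at 0 h to between 9.44 and 18.7 FPKM at 96 h. Csf1r, the receptor of macrophage colony-stimulating factor, went from between 0.324 and 1.13 FPKM at 0 h to between 7.17 and 13.5 FPKM at 96 h. Mrc1 went from between 0.144 and 0.305 FPKM to between 1.27 and 3.00 FPKM, and passed the filter on low values through the libraries at 96 h alone. The 10 mast cell, basophil and eosinophil markers summed to between 450 and 1041 FPKM at 0 h, to between 922 and 3002 FPKM at 36 h, led by Cpa3, and at 96 h to between 1299 and 2608 FPKM in wild-type and between 356 and 1086 FPKM in HMGN1-OE cells, then led by Prg2. The 8 erythroid and megakaryocyte markers were between 17.8 and 76.9 FPKM in sum at 0 h, between 24.3 and 54.4 FPKM at 36 h and between 3.36 and 18.5 FPKM at 96 h. The 5 B cell markers summed to between 20.2 and 30.2 FPKM at 0 h and 8.16 and 46.0 FPKM at 36 h, almost wholly Ebf1, and the 5 T and NK cell markers to between 13.0 and 30.1 FPKM and between 39.7 and 76.3 FPKM, almost wholly Nkg7, with Ms4a1, Cd3e and Cd8a at the floor. Cybb is also transcribed in monocytes and eosinophils, and the part of those cells in its rise was not tested.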

How the data were processed

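RNA from a fixed number of counted cells per sample received ERCC spike-in RNAs, and polyA libraries that do not keep strand were sequenced on a NextSeq500. The authors' methods name Bowtie 0.12.2, RPKM and loess normalization to the ERCC RNAs, whereas the submitters' processing notes name HISAT, Cufflinks 2.0.0 and mm9, with no roles given. The deposited values are FPKM made by the authors, 1 per gene and library, and were used as they stand. They hold no counts, so depth is unknown and no counting error is given. Column names give genotype and time, and the libraries of a group are called a and b in column order. All value columns were used.

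The FPKM values were turned into log2(FPKM + 1). The 11516 genes that reached 1 FPKM in 2 or more of 12 libraries entered limma 3.58.1, run in R 4.3.3 (trend, 6 group means, two-sided, Benjamini-Hochberg over all tested genes, called at an adjusted p under 0.05), after a check on simulated data. The simulated noise was independent between genes, so the check did not cover shifts shared by a whole library. Prior degrees of freedom were infinite as deposited and 2.87 after centring. Tables and figures were made with Python 3.11.15, numpy 2.4.6, pandas 2.3.3 and matplotlib 3.10.9. All of the 5 genes passed the filter. Of each gene list the text may name any gene, and it names the highest, the lowest and genes called. Older symbols were matched through RefSeq (Sfpi1 for Spi1, BC017643 for Cybc1), and Ly6g was not matched. Exon overlaps and shared words come from GENCODE vM21, whose build differs from mm9, so the only coordinates given are those of promoter windows in GRCm38.p6. The genes and lists were chosen with earlier results of these data known. Alternatives were other pseudocounts (0.1 and 0.01), filters, scalings and variance models and leaving out each library, and a fit without the b libraries of wild-type cells at 0 and 96 h was added after the values were seen. A comparison of the proteins was not made, and a few listed genes are not reported here by name.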

Additional observations from a re-analysis of the deposited data

How the results depend on the processing

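Of 1375 values of the 5 subunit genes under the alternatives, 1200 kept their direction and their side of the threshold, 54 passed it anew, 15 turned from a fall, or a value near 0, into a called rise, and 106 changed sign with neither value called. The Cybb rise was called under all 25 alternatives in each genotype. It ran from 5.86 to 9.12 from 36 to 96 h and from 5.14 to 7.70 from 0 to 96 h in wild-type cells, and from 6.52 to 8.73 and from 5.49 to 7.05 in HMGN1-OE cells, with highest adjusted p-values of 0.00223, 0.00447, 0.0043 and 0.00697, all from the linear model without moderation. None of the 5 subunit genes was called between genotypes, in an interaction or from 0 to 36 h in wild-type cells under any alternative, with lowest adjusted p-values of 0.449, 0.0713 and 0.124 at 0, 36 and 96 h, 0.208 and 0.261 for the interactions, and 0.0543.

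The count of called subunit genes moved with the scaling. It was 1 as deposited and 5 after centring, after quantile normalization and after centring without the b libraries of wild-type cells at 0 and 96 h, in each genotype from 36 and from 0 to 96 h. These scalings remove the fall of the median by construction. The rises that replaced a fall or a value near 0 under centring, quantile normalization and centring without those libraries were, from 36 to 96 h in wild-type cells, 2.26, 2.53 and 2.28 for Ncf1, 1.91, 2.16 and 1.99 for Ncf4 and 1.43, 1.69 and 1.54 for Rac2. For Rac2 they were 1.56, 1.78 and 1.78 in wild-type cells from 0 to 96 h and 1.31, 1.45 and 1.31 in HMGN1-OE cells from 36 to 96 h. As deposited without those libraries 4 genes were called from 0 to 96 h in wild-type cells (Cybb, Cyba, Ncf1 and Ncf4), 3 in HMGN1-OE cells from 36 to 96 h and 4 from 0 to 96 h. With only the compared libraries, 3 were called in HMGN1-OE cells from 36 to 96 h, and without the trend 2 from 0 to 96 h. From 0 to 36 h in HMGN1-OE cells 1 gene, Cybb, was called at pseudocounts of 0.1 and 0.01 and with only the compared libraries, against 0. The cause was not tested for these settings.

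With each library left out in turn, the count ran from 1 to 2 in wild-type cells from 36 to 96 h, and from 1 to 2 and 1 to 3 in HMGN1-OE cells from 36 and 0 to 96 h. Without wild-type library a at 96 h, Rac2 was called lower in wild-type cells, at -1.49, against -0.30 without library b, and without either wild-type library at 96 h Ncf1, at 0.98 from 36 h and 1.03 from 0 h, and Cyba, at 1.18 from 0 h, were called higher in HMGN1-OE cells. A lone library was then assumed to vary like the other groups. No paired analysis was possible because the replicate numbers of the sample titles could not be tied to columns, whose names carry other digits, and a block by those digits was not run. The depth is unknown, and values below 1 FPKM, as for Cybb at 36 h, are low. For the other gene lists each library was left out in turn as deposited, an alternative chosen after seeing the data.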
